A study of Homo sapiens with 18 samples.

Results

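YSCCC is a human cholangiocarcinoma line, a cancer of the bile duct epithelium, that the labels place in liver. It was cultured in RPMI-1640 medium with 10% serum and carried, as stable lentiviral lines, either a control hairpin (shControl, genotype WT) or the hairpin shRNF213#2 (genotype RNF213 knockdown), with 3 biological replicates of each. The 2 libraries that carry replicate number 3, 1 per hairpin, are described here against the 4 YSCCC libraries of replicates 1 and 2, out of 18 libraries in the whole series. These libraries were chosen by their measured counts: in an earlier look, endoplasmic reticulum (ER) and ATF4 genes were high in both. The difference of replicate 3 from replicates 1 and 2 is therefore a description without a test. The labels do not say what a replicate number stands for, such as a day, a passage or a thaw. Only 1 hairpin against RNF213 was sequenced, and the labels do not say whether each line is a pool or a clone.

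As background, cells that accumulate unfolded protein in the ER signal through the sensors IRE1, PERK and ATF6, and ATF6 and the spliced form of XBP1 turn on ER chaperones. PERK and the amino acid sensor GCN2 both phosphorylate the initiation factor eIF2 alpha, which slows bulk translation but favours translation of the transcription factor ATF4. ATF4 in turn drives genes for amino acid synthesis, uptake and tRNA charging. A proliferating culture is known by its mitotic and DNA replication messages.

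Across 16932 tested genes, replicate 3 held its own program in both arms. Genes are counted as higher or lower when the fitted difference was at least 2-fold and both replicate 3 libraries lay beyond all 4 others in CPM, the counts scaled to library size. By this rule 1291 genes were higher (7.62%) and 1424 were lower (8.41%), 2715 in all (16.0%), and the median gene differed by 0.01 on the log2 scale. On a log2 CPM scale and over the 11626 genes that averaged 5 CPM or more, replicates 1 and 2 of the same arm correlated at 0.989 (shControl) and 0.983 (shRNF213), and replicate 3 correlated with them at 0.900 to 0.912. These correlations are across genes, which are not independent replicates.

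The label of an ER stress-like state held for part of the data. ATF4-dependent amino acid genes were higher in 19 of 24 tested members, but ER chaperones in only 7 of 22, and the abundant chaperones calnexin, calreticulin and protein disulfide isomerase were level. All 25 tested mitosis genes and 23 of 25 replication genes were lower. The state is therefore called YSCCC replicate 3 below, and these counts come from the contrast that chose the libraries.

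Promoters are shown for 4 genes, 3 of which were higher in replicate 3 and 1 of which, HSP90B1, holds the same motif but differed little. Each run covers 250 bases before to 50 bases after the annotated start (RefSeq, GRCh38.p14), 5′ to 3′ on the gene's strand, with the matching letters in capitals. The motifs are the ER stress element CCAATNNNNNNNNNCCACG, of which only the 5 fixed letters at each end are in capitals, and the ATF4 and C/EBP composite word TTGCATCA, searched on both strands. A match to the opposite strand appears as its reverse complement.
HSPA5, chr9:125241294-125241593, minus strand: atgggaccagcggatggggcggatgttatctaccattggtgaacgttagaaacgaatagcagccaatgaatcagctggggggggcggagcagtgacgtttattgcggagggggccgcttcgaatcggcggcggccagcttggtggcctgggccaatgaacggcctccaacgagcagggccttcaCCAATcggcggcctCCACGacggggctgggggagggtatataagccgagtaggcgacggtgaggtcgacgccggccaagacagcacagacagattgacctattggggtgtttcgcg
HSP90B1, chr12:103930160-103930459, plus strand: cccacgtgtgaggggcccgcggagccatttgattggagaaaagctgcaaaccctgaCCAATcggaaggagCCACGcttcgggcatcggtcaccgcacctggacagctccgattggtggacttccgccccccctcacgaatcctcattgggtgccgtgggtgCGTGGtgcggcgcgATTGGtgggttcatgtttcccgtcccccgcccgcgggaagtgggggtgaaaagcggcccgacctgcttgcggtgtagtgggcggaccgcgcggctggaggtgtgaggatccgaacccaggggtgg
ERO1B, chr1:236281909-236282208, minus strand: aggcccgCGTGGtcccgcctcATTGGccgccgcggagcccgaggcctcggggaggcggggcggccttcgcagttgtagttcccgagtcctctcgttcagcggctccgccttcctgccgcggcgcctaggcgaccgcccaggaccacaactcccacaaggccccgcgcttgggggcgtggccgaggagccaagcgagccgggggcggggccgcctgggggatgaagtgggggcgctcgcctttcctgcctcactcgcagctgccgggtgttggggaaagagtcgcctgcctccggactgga
CHAC1, chr15:40953221-40953520, plus strand: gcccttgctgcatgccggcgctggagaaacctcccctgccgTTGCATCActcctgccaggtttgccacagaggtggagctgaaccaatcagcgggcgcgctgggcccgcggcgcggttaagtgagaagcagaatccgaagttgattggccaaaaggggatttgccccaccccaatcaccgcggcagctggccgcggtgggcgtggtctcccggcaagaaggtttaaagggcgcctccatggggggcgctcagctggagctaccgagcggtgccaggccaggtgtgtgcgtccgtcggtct

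The ER stress element began 66 bases before the start of HSPA5, at 194 bases and, on the opposite strand, 89 bases before that of HSP90B1, and on the opposite strand 243 bases before that of ERO1B. The composite word lay 209 bases before the start of CHAC1. This word was in 252 of 27305 promoters of this length (0.923%). It was in only 1 of 18 matched genes of the ATF4 list (5.56%), and in 6 of 14 matched tRNA synthetase genes (42.9%). Among 27305 promoters of this length, 22 (0.0806%) held the ER stress element, and among the ER chaperone list 6 of 21 matched genes did (28.6%): CALR, CANX, CRELD2, ERO1B, HSP90B1 and HSPA5. Only 2 of these 6 were counted higher, with a median log2 difference of 0.46, and 5 of the 15 chaperone genes without it were, with a median of 0.52. Chaperones counted higher were thus found both with and without an exact match. Another searched word, TGACGTGG, was in 2 of the 21 (9.52%), HYOU1 among them, and in 0.795% of all promoters. Other forms of the element and sites outside this stretch were not searched, so the part of the element was not tested. For the promoters of all tested genes, 12345 of 16932 were matched (72.9%), which is too few for a comparison of higher with lower genes.

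ER folding genes were higher at the level of a few members. HSPA5, the ER lumenal Hsp70 chaperone BiP, stood at 910 and 915 CPM in shControl replicates 1 and 2, at 836 and 843 CPM in shRNF213 replicates 1 and 2, and at 3483 CPM (shControl) and 2366 CPM (shRNF213) in replicate 3. Both replicate 3 libraries thus lay far above a narrow range, with a fitted difference of 3.29-fold (log2 1.72). HSP90B1, the ER Hsp90, was at 792 to 861 CPM in replicates 1 and 2 and at 1246 and 1026 CPM in replicate 3 (log2 0.44). Its groups did not overlap, but it was not counted. Of all 16932 tested genes, 4675 lay apart in this way on the higher side and 4664 on the lower, at any size of difference. ERO1B, an oxidase that recharges protein disulfide isomerases, was at 2.24 to 3.90 CPM against 9.42 and 11.6 CPM (log2 1.86). DNAJB9, a cochaperone of BiP, was at 16.3 to 19.7 CPM against 60.1 and 49.0 CPM (log2 1.65). HYOU1, DNAJC10, MANF and SEL1L were the other chaperone list members counted higher, at log2 differences of 1.33, 1.27, 1.11 and 1.08. Against these, CANX (calnexin) averaged 1986 CPM in replicate 3 and 2053 ± 146 CPM (SD, n = 4) in replicates 1 and 2. CALR (calreticulin) averaged 759 CPM against 762 ± 78.4 CPM, and P4HB (protein disulfide isomerase) 1019 CPM against 1009 ± 139 CPM. SERPINH1, the collagen chaperone, differed by -0.08 (log2) between the replicates and mainly followed the hairpin, at 234, 236 and 189 CPM in shControl and 74.4, 43.0 and 65.6 CPM in shRNF213.

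ER-associated degradation, which returns misfolded proteins to the proteasome, had 3 of 18 members higher: HERPUD1, SEL1L and DERL3. HERPUD1, a scaffold of the degradation complex, was at 75.7 to 126 CPM in replicates 1 and 2 and at 544 and 329 CPM in replicate 3 (log2 2.07). Both replicate 3 libraries were well above the others, and DERL3 was scarce at 1.18 and 0.94 CPM. Other steps of the secretory pathway were close to the background: 1 of 23 translocation and targeting genes, 2 of 22 N-glycosylation genes and 1 of 27 vesicle coat genes (COPII and COPI) were higher, and none was lower.

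Sensors and transcription factors of the unfolded protein response had 7 of 16 members higher and none lower (median log2 0.73). ERN1, which encodes IRE1, was at 15.4 to 20 CPM in replicates 1 and 2 and at 111 and 105 CPM in replicate 3 (log2 2.62). The gap is wide in both arms. DDIT3, the factor CHOP, was at 20.9 to 34.9 CPM against 106 and 88.9 CPM (log2 1.77). ATF3, a stress factor of the same family as ATF4, was at 59.5 to 76.4 CPM against 196 and 232 CPM (log2 1.71). PPP1R15A, a regulatory subunit of the phosphatase that acts on eIF2 alpha, was at 91.8 to 96.5 CPM against 299 and 311 CPM (log2 1.69). XBP1 and ATF6 were higher by 1.19 and 1.08 (log2). The ATF4 message itself differed by 0.44 (log2) and was not counted, and the files hold no measure of its translation or of XBP1 splicing.

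ATF4-dependent amino acid genes had the highest median of the 49 lists. The list's median log2 difference was 1.48, against 0.01 for all genes, and its summed level was 1208 to 1499 CPM in replicates 1 and 2 and 4066 and 4156 CPM in replicate 3, a ratio of 3.01. The arms of replicate 3 were thus nearly equal. INHBE, a subunit of activin E, was at 2.96 and 1.46 CPM in shControl replicates 1 and 2, at 0.41 and 0.41 CPM in shRNF213, and at 78.7 and 20.8 CPM in replicate 3 (log2 5.32). The shControl library was above the shRNF213 library in each replicate number. CHAC1, an enzyme that breaks down glutathione, was at 8.42 to 12.4 CPM against 126 and 133 CPM, a 12.8-fold difference (log2 3.68). ADM2, a peptide hormone, was at 13.3 to 19.5 CPM against 114 and 138 CPM (log2 2.98).

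The list holds the 3 enzymes of serine synthesis, and all were counted higher. PHGDH, its entry enzyme, was at 11.5 to 28.0 CPM in replicates 1 and 2 and at 103 and 137 CPM in replicate 3 (log2 2.83). PSAT1, the next enzyme, was at 51.8 to 82.6 CPM against 363 and 374 CPM (log2 2.41), and PSPH, the last, at 25.0 to 28.5 CPM against 62.4 and 72.8 CPM, 2.54-fold higher. PHGDH had the largest of the 3 differences. The mitochondrial one-carbon enzymes SHMT2 and MTHFD2 were both higher by 1.33, and CBS and CTH of the transsulfuration route by 2.22 and 1.51 (log2). GDF15, a secreted stress hormone, was at 94.7 to 146 CPM against 437 and 489 CPM (log2 1.96). The members not counted were DDIT4, at 0.93, ALDH1L2, ALDH18A1, VLDLR and JDP2, at 0.46 to -0.03.

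ASNS, asparagine synthetase, needs its own remark. Its raw counts were only 6 to 15 in replicates 1 and 2 and 135 and 118 in replicate 3 (log2 3.49), while its deposited TPM (transcript counts scaled to length and library size) was 24.1 to 39.9 against 297 and 383. In the files' annotation ASNS overlaps a clone-named gene on the same strand, and the part of this overlap in its low count was not tested. Both units place replicate 3 higher, by 3.49 in counts and 3.28 in TPM (log2). Over all genes that averaged 5 CPM or more, the log2 ratio of TPM correlated with the fitted difference of counts at 0.989 across genes, and none of the 154 named genes had opposite signs in the 2 units.

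Amino acid carriers and tRNA synthetases gave similar counts. Of 13 tested amino acid transporters 6 were higher and none lower. SLC7A5, the large neutral amino acid carrier LAT1, was at 163 to 211 CPM in replicates 1 and 2 and at 659 and 791 CPM in replicate 3 (log2 1.99). SLC1A4, a carrier of alanine, serine and cysteine, was at 7.91 to 15.5 CPM against 105 and 96.5 CPM (log2 3.10). SLC43A1, SLC6A9, SLC7A11 and SLC7A1 were higher by 3.29, 2.12, 1.83 and 1.44. Of 18 cytosolic aminoacyl-tRNA synthetases 7 were higher and none lower: WARS, GARS, LARS, SARS, CARS, EPRS and IARS. WARS, which charges the tryptophan tRNA, was at 128 to 141 CPM against 517 and 641 CPM (log2 2.12). Of 17 mitochondrial tRNA synthetases, a list added after values had been seen, none was counted either way, with a median of -0.02. The summed level of the cytosolic enzymes was 1.89 times that of replicates 1 and 2, and that of the mitochondrial enzymes 0.961 times.

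**Figure D1:**
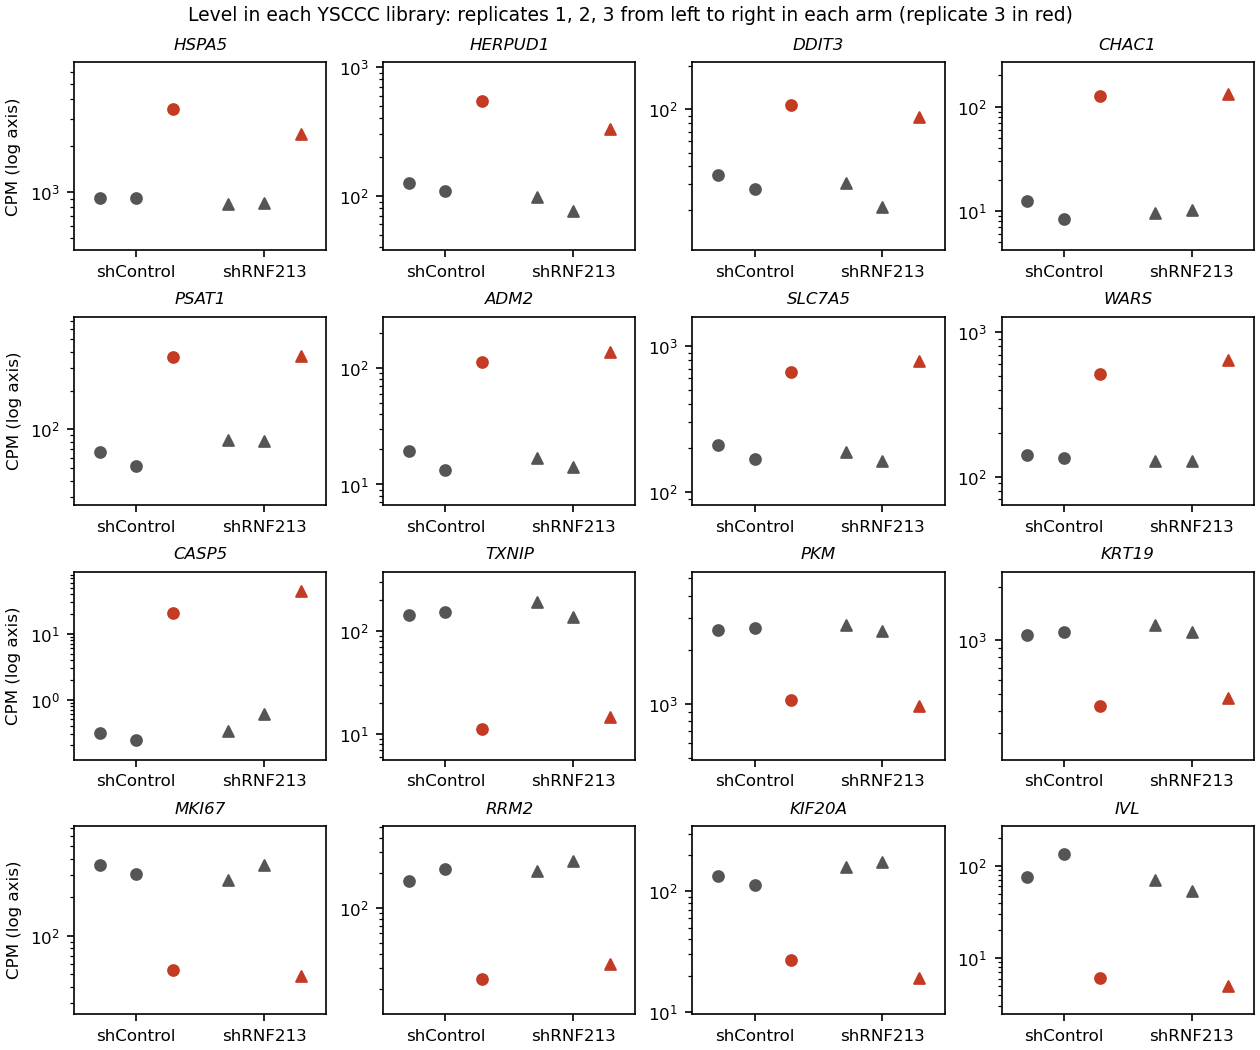
Level of 16 genes in each YSCCC library in CPM (log axes; circles are shControl, triangles shRNF213, replicates 1 to 3 from left to right in each arm, replicate 3 in red). In each panel both replicate 3 libraries lie outside the range of the other 4, above it for the first 9 genes (HSPA5 to CASP5) and below it for the other 7.

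Cell cycle messages were the broadest group on the lower side. The summed level of 25 mitosis genes was 2682 to 3405 CPM in replicates 1 and 2 and 824 and 748 CPM in replicate 3, 3.96-fold lower. MKI67, the proliferation antigen Ki-67, was at 271 to 360 CPM against 54.6 and 48.9 CPM (log2 -2.65). KIF20A and KIF11, motors of the mitotic spindle, were lower, with log2 differences of -2.64 and -2.42, as was AURKB, a mitotic kinase, with -2.24. The smallest differences among the 25 were those of PTTG1, securin, and CENPA, the centromeric histone, both at -1.36.

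Replication genes had a summed level of 2568 to 3210 CPM in replicates 1 and 2 and 839 and 984 CPM in replicate 3, 3.21-fold lower. RRM2, the regulated subunit of ribonucleotide reductase, was at 171 to 252 CPM in replicates 1 and 2 and at 24.2 and 32.7 CPM in replicate 3, 7.48-fold lower (log2 -2.90). UHRF1, which maintains DNA methylation at replication forks, had a log2 difference of -2.35, and GINS2, of the replicative helicase, one of -2.19. TYMS, thymidylate synthase, had one of -2.38, and its counts are uncertain because it overlaps ENOSF1 on the other strand and the labels do not say whether counting used strand. The helicase subunits MCM2 to MCM7 were all counted lower, from -1.06 (MCM7) to -2.16 (MCM5), where MCM7 varied with the hairpin (68.1 and 71.5 CPM in shControl, 143 and 148 CPM in shRNF213, before replicate 3). Of 18 homologous recombination and Fanconi genes, a list added after values had been seen, 16 were lower, among them EXO1 (-2.28), BLM (-2.08) and RAD54L (-1.72).

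An E2F word (TTTCCCGC or TTTGGCGC, both strands) was in 13 of the 21 replication promoters that could be matched (61.9%) and in 2.31% of all promoters. Of the 13 with the word 12 were counted lower, with a median of -1.79, and of the 8 without it 7 were, with a median of -1.75. The 2 groups of replication genes thus had nearly the same difference. Variant words and sites outside the promoter stretch were not searched, so the part of E2F was not tested. Replication-dependent histones, which poly(A) libraries capture poorly, had 2 of 10 members lower (HIST1H1E and HIST1H2BJ) and none higher, and these copies share sequence.

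**Figure D2:**
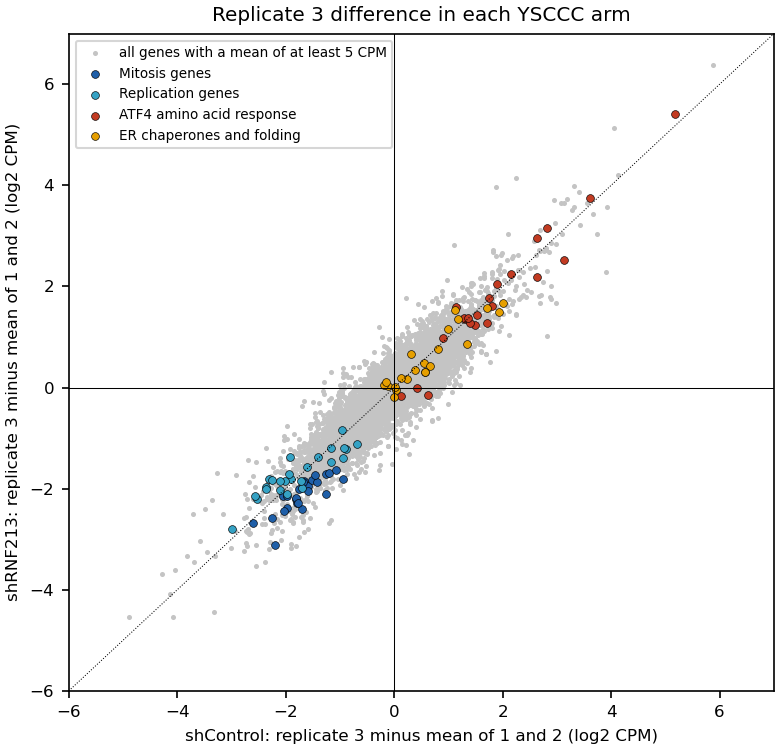
Difference of replicate 3 from the mean of replicates 1 and 2 in shControl (horizontal axis) and shRNF213 (vertical axis), both in log2 CPM, for each gene that averaged 5 CPM or more (grey), with the mitosis, replication, ATF4 and ER chaperone lists in colour; the dotted line marks equal differences. The points follow the diagonal with a correlation of 0.905, and the mitosis and replication genes lie in the lower left.

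The 2 arms differed from their own replicates 1 and 2 in much the same genes. Over genes that averaged 5 CPM or more, the arm differences correlated at 0.905 across genes and had the same sign in 84.75% of them. In shControl 640 genes were at least 2-fold higher and in shRNF213 584, and 412 were in both lists (64.4% of the first and 70.5% of the second). At least 2-fold lower were 817 genes in shControl and 861 in shRNF213, with 632 in both (77.4% and 73.4%). No gene was 2-fold higher in one arm and 2-fold lower in the other. For scale, replicate 2 differed from replicate 1 by at least 2-fold in 79 genes in shControl and 144 in shRNF213, and 31 genes did so in the same direction in both arms.

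Glucose-linked genes were among those lower in replicate 3. TXNIP, a suppressor of glucose uptake whose message follows intracellular glucose metabolites through the factor MondoA, was at 137 to 190 CPM in replicates 1 and 2 and at 11.3 and 14.6 CPM in replicate 3, 12.1-fold lower (log2 -3.59). ARRDC4, its close relative, was at 16.7 to 28.3 CPM against 9.06 and 9.28 CPM (log2 -1.25). The other 4 listed MondoA genes were not counted, and HBP1 and ARRDC2 had positive differences. Of 22 genes for glucose uptake and glycolysis 4 were lower and 2 higher, where 8.41% of all genes were lower and 7.62% higher. PKM, the pyruvate kinase gene, was at 2526 to 2724 CPM against 1047 and 975 CPM (log2 -1.37), and LDHA, lactate dehydrogenase A, at 775 to 1069 CPM against 361 and 360 CPM (log2 -1.30). PGAM1 and PFKFB3 were lower, at log2 differences of -1.18 and -1.08, and ENO2 and ALDOC were 3.36-fold and 2.21-fold higher. Of 19 tested hypoxia genes 2 were higher and 2 lower, near the shares over all genes, and 15 were not counted. VEGFA (1.63) and NDRG1 (1.60) were higher, and AK4 (-1.63) and EGLN3 (-1.60) were lower. VEGFA, the vascular growth factor, is also an ATF4 target.

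Of 20 cytosolic heat shock response genes 2 were lower, a share near the 8.41% over all genes, and none was higher. Their median log2 difference was -0.66, with 17 of 20 below 0. HSP90AA1, the inducible cytosolic Hsp90, was at 1658 to 1935 CPM in replicates 1 and 2 and at 731 and 688 CPM in replicate 3 (log2 -1.29). HSPA1A, the inducible Hsp70, was at 80.7 to 119 CPM against 30.9 and 39.8 CPM (log2 -1.42), and is uncertain because HSPA1B is nearly identical. Antioxidant targets of NRF2 were mixed, with 5 of 21 higher and 2 lower. GCLC, which starts glutathione synthesis, was at 64.6 to 142 CPM against 245 and 307 CPM (log2 1.51), and ABCC2, an export pump, was lower (log2 -2.33). None of the 34 ribosomal protein genes, 25 ribosome biogenesis genes, 26 nuclear respiratory chain genes or 13 mitochondrially encoded messages was counted either way. Small negative differences were seen in 12 of the 13 mitochondrially encoded messages and 22 of the 26 nuclear respiratory chain genes. Their summed levels were 0.859 and 0.835 times those of replicates 1 and 2. The ratio was 0.847 for ribosome biogenesis and 1.00 for ribosomal proteins.

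Innate immune genes included the gene with the largest positive fitted difference. CASP5, an inflammatory caspase (chr11:104994235-105023168, minus strand), was at 0.24 to 0.61 CPM in replicates 1 and 2 and at 20.8 and 44.4 CPM in replicate 3 (log2 6.42). Its neighbours and relatives CASP1 and CASP4 had fitted ratios of 2.83 and 1.96, of which only that of CASP1 was counted higher, and the levels within this caspase cluster are uncertain where reads match several copies. NLRP11 and NLRP1, sensors of the same receptor family, were higher by 3.30 and 2.23 (log2), and IL18, a cytokine that caspase-1 processes, was lower (log2 -1.45). These come from an inflammasome list, added after values had been seen, with 7 of 15 members higher and 1 lower. Of 33 tested interferon-stimulated genes 9 were higher and 1 lower, most of them scarce: XAF1 was at 1.27 to 2.04 CPM against 6.98 and 10.3 CPM (log2 2.39), and RSAD2, an antiviral enzyme, at 1.22 to 1.74 CPM against 4.97 and 4.99 CPM (log2 1.77). STAT2, a factor of interferon signalling, was at 67.7 to 114 CPM against 165 and 171 CPM (log2 1.05). The summed level of the list was nonetheless 1.01 times that of replicates 1 and 2. NF-kappaB targets had 4 of 22 higher and 2 lower, and no MHC class I gene was counted.

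Epithelial differentiation genes held several of the largest negative differences. IVL, involucrin of the cornified envelope, was at 53.7 to 135 CPM in replicates 1 and 2 and at 6.07 and 4.95 CPM in replicate 3 (log2 -3.89). SPRR3, another envelope protein, was at 23.4 to 56.5 CPM against 2.96 and 1.13 CPM (log2 -4.33), and TP63, the factor of squamous epithelium, at 57.5 to 103 CPM against 17.1 and 12.7 CPM (log2 -2.38). In the squamous list, added after values had been seen, 7 of 20 tested genes were lower, but CSTA (cystatin A) and TGM1 (transglutaminase 1) were higher by 3.50 and 2.32. Keratins went both ways. KRT19 was at 1068 to 1216 CPM against 425 and 474 CPM (log2 -1.32), KRT8 was lower (log2 -1.07), and KRT17 was higher (log2 2.04), with 43.5 CPM in shControl and 14.4 CPM in shRNF213 (log2 2.65 without shRNF213 replicate 1).

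Targets of TGF-beta and BMP signalling were lower in 7 of 22 tested members and higher in 1. The inhibitors of differentiation ID1, ID2 and ID3, which BMP signalling induces, had log2 differences of -1.84, -2.85 and -1.96. ID2 was at 51.1 to 114 CPM in replicates 1 and 2 and at 11.4 and 9.59 CPM in replicate 3. INHBA, the activin A subunit, was lower (log2 -2.76), so 2 activin genes, INHBE and INHBA, lay on opposite sides. Matrix genes were split as well. The collagen VI chains COL6A2 and COL6A1 were 6.32-fold and 2.83-fold higher, and SPARC, a matrix glycoprotein, was lower (log2 -2.09). CD44, a hyaluronan receptor in the Wnt list, was at 261 to 500 CPM against 162 and 102 CPM (log2 -1.60).

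In several other lists the counts in each direction were few, where 7.62% of all genes were higher and 8.41% lower. They are given as values of single genes. ETV5, a transcription factor that ERK signalling induces, was at 22.8 to 34.9 CPM in replicates 1 and 2 and at 124 and 112 CPM in replicate 3, 4.29-fold higher, but the ERK phosphatase gene DUSP4 and the receptor gene EPHA4 were lower (log2 -1.39 and -1.44), and the list had 2 of 17 higher and 2 lower. Among 20 tested p53 targets and CDK inhibitors, 3 were higher and 2 lower. TNFRSF10B, a death receptor that CHOP also induces, was higher (log2 1.63), as were GDF15 and SESN2, which the ATF4 list shares. BTG2 and DDB2 were lower (log2 -1.64 and -1.11). Matrix proteases and their inhibitors had 2 of 23 higher and 3 lower, with PLAT, tissue plasminogen activator, at -2.05 and SERPINE2, a protease inhibitor, at 1.59. Notch genes had 2 of 16 higher (HEY2 and NRARP) and 2 lower (LFNG and DTX4), where HEY2 had a log2 difference of 1.49 that was 0.76, under 2-fold, with shControl replicate 3 left out and 2.20 with shRNF213 replicate 3 left out. Cholesterol synthesis, with 1 of 25 lower, and fatty acid genes, with 1 of 20 in each direction, had medians of -0.15 that changed sign without the shRNF213 library of replicate 3.

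**Figure D3:**
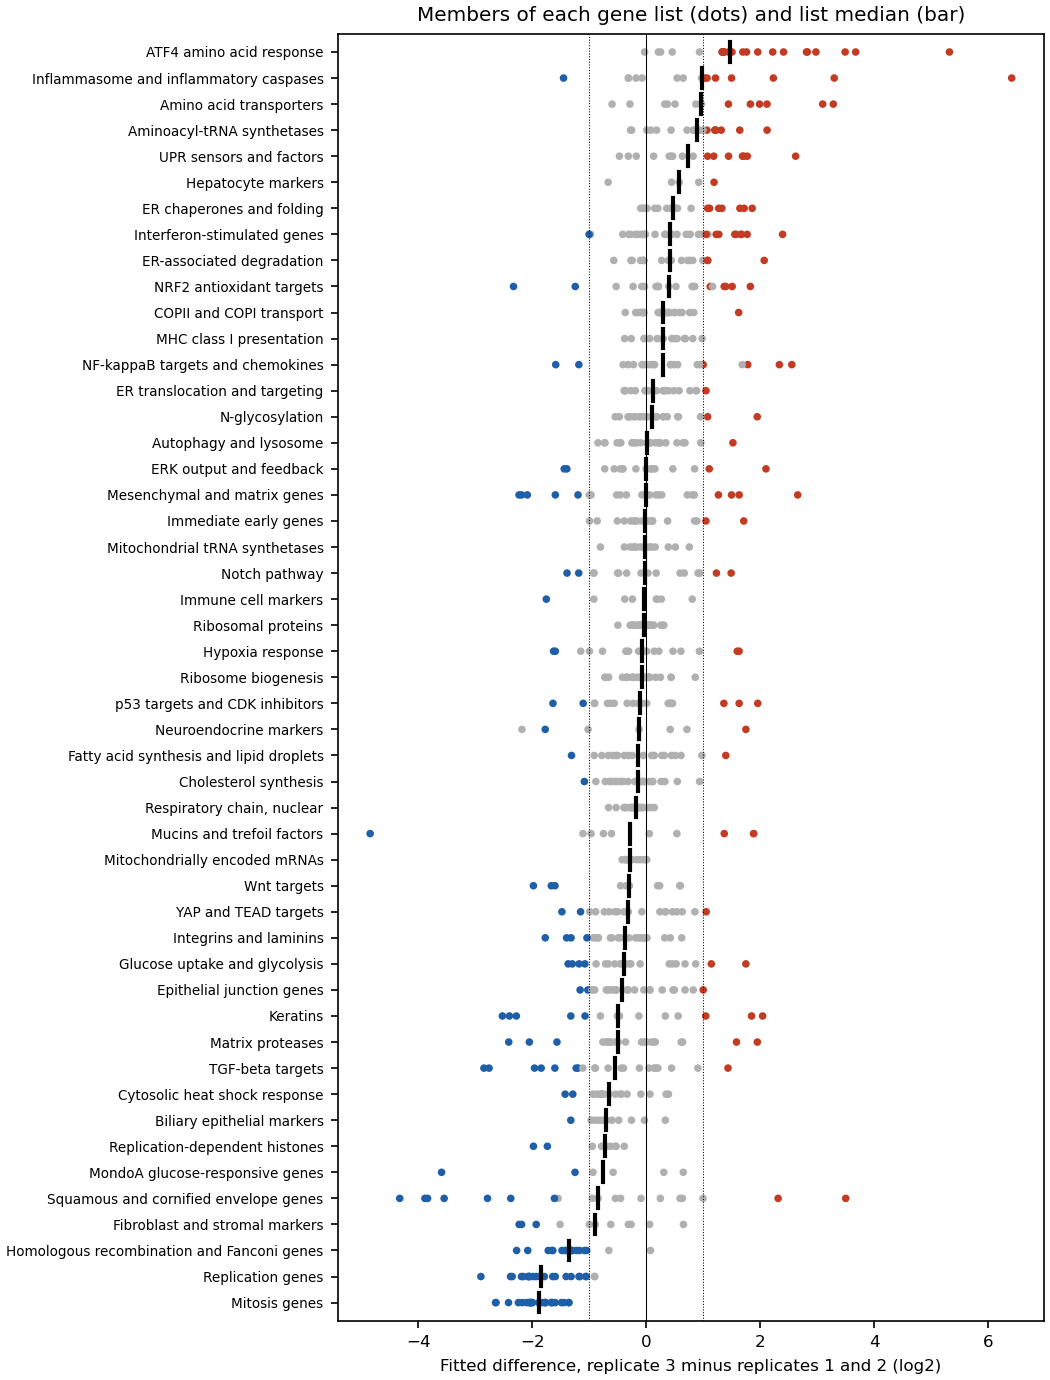
Fitted log2 difference of replicate 3 from replicates 1 and 2 for the tested members of each gene list (dots; red counted higher, blue counted lower, grey neither), with the list median as a black bar and dotted lines at 2-fold. The medians run from -1.89 for mitosis genes to 1.48 for ATF4 genes.

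Beyond the lists, counted genes with an assigned symbol that averaged 5 CPM or more were ranked by their difference. The top 15 per direction ran from 3.35 to 6.42 and from -3.08 to -5.18 (log2). Besides CASP5, INHBE, CHAC1 and CSTA, the higher ones were DDR2, KLHDC7B, SDS, RGS16, LINC01293, CUZD1, AKNA, ADCY7, SUN3, LAMP3 and NIBAN1. DDR2, a receptor tyrosine kinase for collagen, was at 1.63 to 5.13 CPM in replicates 1 and 2 and at 69.4 and 66.6 CPM in replicate 3 (log2 4.59, and 5.19 without the shControl library of replicate 3). KLHDC7B, a kelch domain protein, was at 11.2 to 18 CPM against 272 and 228 CPM (log2 4.16). LAMP3, a lysosomal membrane protein, was at 11.9 to 15.7 CPM against 115 and 174 CPM (log2 3.35). In all 3 both replicate 3 libraries lay far above the other 4. Besides IVL, SPRR3, TMPRSS11E and TXNIP, the lower ones were CDH10, KIT, ATOH8, SYNPO2L, SHROOM4, PLA2G2F, EPHA3, COLEC12, GJA5, MAP2K6 and BBOX1. CDH10, a cadherin, was at 6.70 to 29.6 CPM against 0.39 and 0.39 CPM (log2 -5.18), and KIT, the stem cell factor receptor, at 13.6 to 32.7 CPM against 1.66 and 1.05 CPM (log2 -4.23). The range of CDH10 in replicates 1 and 2 was itself wide, and its difference was -4.49 without shControl replicate 2.

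Markers of other cells were looked at beside these groups, since in bulk RNA fewer cells of a type and less RNA per cell cannot be told apart. Biliary markers were present, with a summed level of 4466 to 4986 CPM in replicates 1 and 2 and 2894 and 3096 CPM in replicate 3. Of the 11 tested 10 had negative differences (median log2 -0.70), of which KRT19 alone was counted lower. KRT7 was the exception, at 657 to 679 CPM against 751 and 941 CPM. Hepatocyte markers were nearly absent, with 5 of 23 tested and a sum of 14.4 to 20.1 CPM against 20.9 and 31.1 CPM. The summed level of fibroblast and stromal markers was 326 to 770 CPM against 128 and 143 CPM, carried by LUM and POSTN (with CDH5, the 3 of 11 tested that were counted lower). Immune markers summed to 82.3 to 98.4 CPM against 97.6 and 92.1 CPM. As a check for RNA of the other lines, 22 genes abundant in HuCCT1 and scarce in YSCCC summed to 12.7 CPM in replicate 3 and 6.43 CPM in replicates 1 and 2, or 0.174% of their HuCCT1 level in replicate 3, and 23 such KKU-100 genes to 9.98 and 7.45 CPM (0.138%). Their part in the results was not tested.

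Library measures moved little with replicate 3. Totals ran from 23778859 to 24987304 counts over the 6 libraries. The share of mitochondrially encoded counts was 1.77% in both replicate 3 libraries and 1.88% to 2.02% in the others, and the TMM scaling factors were 1.03 and 1.04 against 0.968 to 0.988. The median difference per chromosome was between -0.13 (chromosome 14) and 0.14 (chromosome 8). Long non-coding genes were counted higher in 11.1% and lower in 10.5% of 2713, and protein-coding genes in 6.90% and 7.89% of 13946.

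RNF213, a large ubiquitin ligase and the target of the hairpin, was lower with the hairpin in each replicate number: 453 and 160 CPM in replicate 1, 404 and 251 CPM in replicate 2, and 574 and 232 CPM in replicate 3 (shControl first). The difference of the hairpin effect between replicate 3 and replicates 1 and 2 was not itself used to choose the libraries. It was tested over all genes, with 1 replicate 3 library per arm, so the spread in this test comes from replicates 1 and 2. The choice did use ER and ATF4 genes that were high in both arms. For such genes, HSPA5 and CHAC1 among them, the test is not independent of the choice. For RNF213 the difference of the hairpin effect was -0.24 on the log2 scale (adjusted p = 0.991, edgeR's quasi-likelihood test with Benjamini-Hochberg adjustment). For HSPA5 it was -0.44 (adjusted p = 0.988) and for CHAC1 0.15 (adjusted p = 0.993). No gene passed an adjusted p of 0.05 (0 of 16932), 746 had an unadjusted p under 0.05 (4.41%), and DESeq2 and limma-voom also called 0.

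With the replicate number as a block, 65 genes passed (0.384%), 32 with a higher and 33 with a lower hairpin effect in replicate 3, and 1464 had an unadjusted p under 0.05. This fit rests on 1 residual degree of freedom, which comes from how the hairpin difference varied between replicates 1 and 2. With only 1 pair of libraries in replicate 3, a changed hairpin effect cannot be told apart from a deviation of that pair. JCAD, a protein of endothelial cell junctions, had hairpin differences of -2.51 and -2.41 in replicates 1 and 2 and -0.99 in replicate 3 (log2 CPM; blocked adjusted p = 0.000428, edgeR). ABCA1, the cholesterol exporter, had -0.86, -0.61 and 0.59, and FBLIM1, a filamin-binding adaptor, -1.05, -0.92 and 0.73. On the other side, the clone-named gene AL161431.1 had the lowest adjusted p of all (0.000106, blocked edgeR fit), with 0.09, 0.32 and -1.37. CCN2, a matricellular growth factor, had 1.81, 1.99 and 0.53, and SPP1, osteopontin, 1.58, 1.15 and 0.11. MT1X, a metallothionein, had 1.06, 0.17 and -1.19, and PTGS2, cyclooxygenase 2, 0.61, -0.13 and -1.23, so replicates 1 and 2 also differed from each other. BMF and FBN1 complete the 10 named genes, all with an adjusted p of 0.988 without the block.

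**Figure D4:**
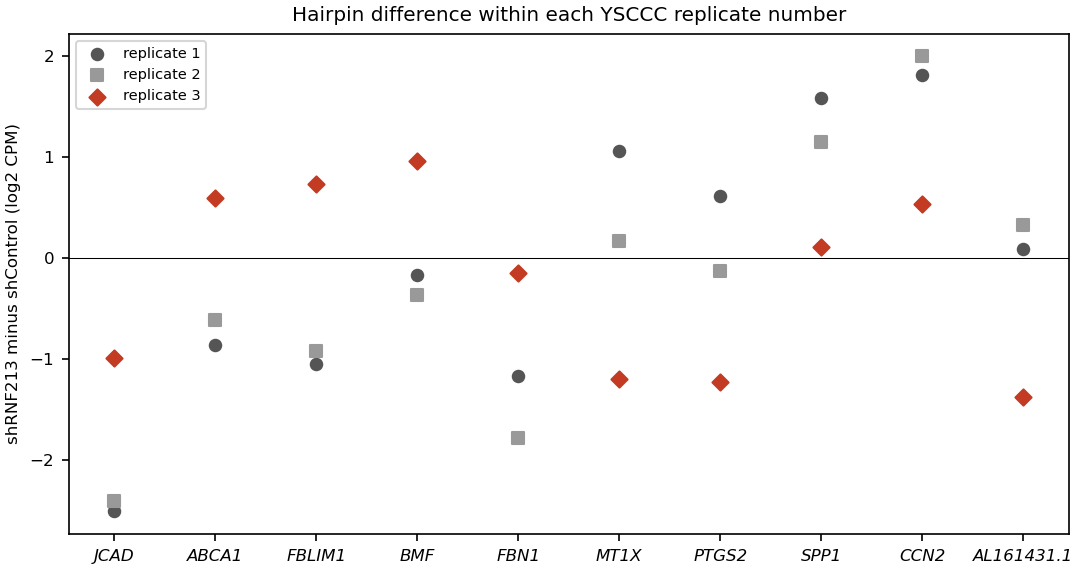
Difference between shRNF213 and shControl (log2 CPM) within each YSCCC replicate number for the 10 genes named from the fit with the replicate block (circles, replicate 1; squares, replicate 2; red diamonds, replicate 3). The red diamond lies above both other points for the 5 genes on the left and below them for the 5 on the right.

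The other lines place the size of these shifts. With all 18 libraries scaled together, which gives other CPM values than the scaling of 6 libraries used above, the ATF4 list of YSCCC had 3.17 times the summed level in its highest replicate number (3) as in its lowest (2), against 1.25 times in HuCCT1 and 1.44 times in KKU-100. For replication genes the ratio was 3.40 in YSCCC (lowest in replicate 3), 1.54 in HuCCT1 and 1.44 in KKU-100. Mitosis genes varied by 4.16 times in YSCCC and by 6.72 times in KKU-100, where replicate 2 was lowest and replicate 1 highest, so a wide spread of mitosis genes between replicate numbers was not found in YSCCC alone. ER chaperones varied by 1.41 times in YSCCC, 1.32 times in HuCCT1 and 1.27 times in KKU-100. Even in replicate 3 the ATF4 sum of YSCCC (3796 CPM) lay below the KKU-100 replicate means, which were 4572 CPM or more.

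**Figure D5:**
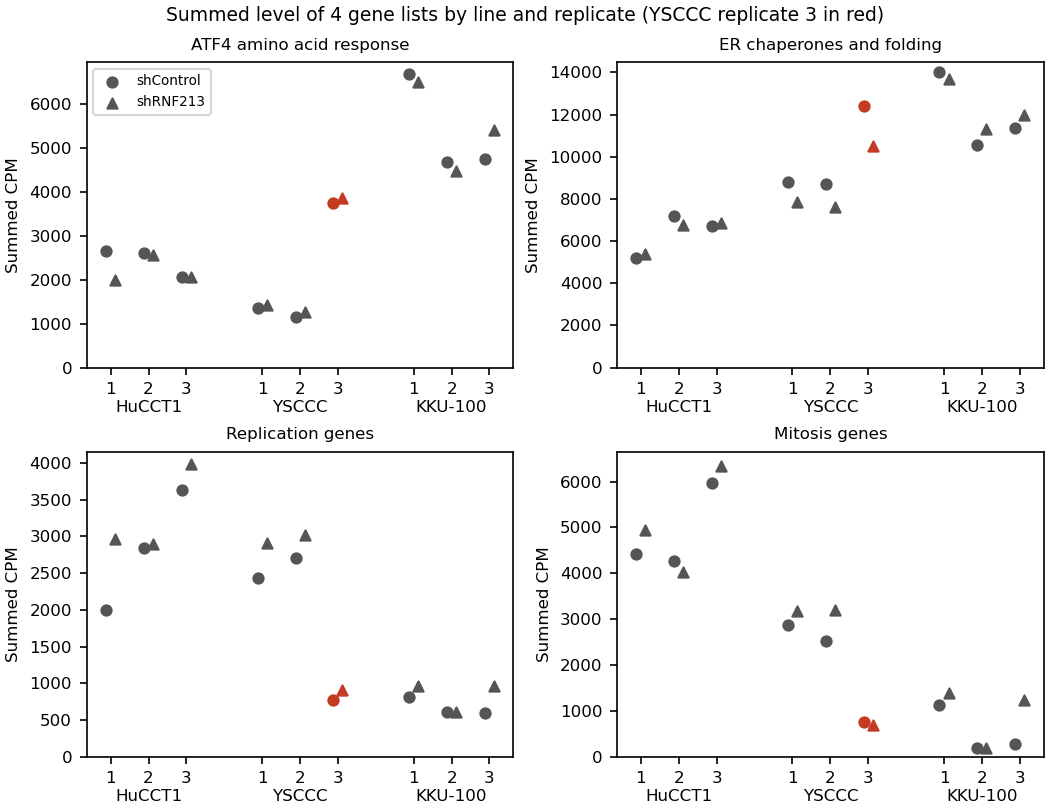
Summed CPM of 4 gene lists in each library (circles shControl, triangles shRNF213) by line and replicate number, with all 18 libraries scaled together and YSCCC replicate 3 in red. YSCCC replicate 3 is above replicates 1 and 2 for ATF4 genes and ER chaperones, and below them for replication and mitosis genes.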

How the data were processed

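The 6 YSCCC libraries of polyadenylated RNA were compared. Per the submitters' processing notes, the tools included STAR 2.5.1b, HTSeq 0.6.1p1, StringTie 2.1.6 and DESeq2 1.34.0 (GRCh38), with FastQC 0.11.9 and Picard 1.139; the role of each, and how strand was handled, the notes do not say. The authors, per the file headers, deposited raw counts and TPM per gene (36601 IDs); counts were used, and TPM for a check with a pseudocount of 0.1. edgeR 4.0.16 in R 4.3.3 fitted replicate 3 against replicates 1 and 2 with the arm as covariate, after filterByExpr (minimum count 10, total 15) and TMM. The prior count was 2. Arm by replicate 3 was tested by quasi-likelihood, with DESeq2 1.42.0 and limma 3.58.1 as alternatives. Deviations from the arm means correlated at 0.817, 0.730 and 0.905 for the same number (1, 2 and 3), all above the 0.1 set for pairing, but crossing numbers 1 and 2 between the arms also gave 0.491 and 0.646. Replicate 3 sets much of each deviation (0.905 is also the arm correlation of the contrast described), so the pairing of replicates 1 and 2 is weakly shown; the blocked fit is given beside the unblocked one. P-values of the arm by replicate 3 term rest on the spread between replicates 1 and 2. Replicate 3 has 1 library per arm and adds no spread of its own. Scripts were tested on simulated data. Members, 45 gene lists and tests were chosen with earlier results of these data known; 4 lists were added after seeing values. Named genes were RNF213, 8 preset genes, 15 per direction with a mean of at least 5 CPM, up to 4 counted per list and up to 5 per direction in the interaction test. Summed levels cover all listed genes in the files.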

Additional observations from a re-analysis of the deposited data

How the results depend on the processing

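The counts of genes higher and lower (1291 and 1424) were 1277 and 1432 with DESeq2 size factors, 1288 and 1436 with DESeq2, 1289 and 1430 without the arm term, 1344 and 1556 with overlap allowed, and 1321 and 1414 with the replicate block. They were 2544 and 2338 with no filter on low counts, 592 and 760 when 5 CPM on average was required, and 2688 and 2599 at 1.5-fold, each of which changes which genes can be counted. Leaving out 1 library gave 1381 to 1704 higher and 1477 to 1723 lower genes. The difference of the hairpin effect was called in 0 genes with DESeq2 size factors, no filter, DESeq2, limma-voom or 1 of the replicate 1 and 2 libraries left out (0 to 0), and in 65 with the replicate block. Leaving out a replicate 3 library leaves no such difference to fit. The correlation of the 2 arms was 0.855 over all genes that pass the filter and 0.905 with a prior count of 0.5. Of 1386 values of the 154 named genes under the alternatives, 1384 kept their sign, and the 2 others were of SERPINH1; 77 values moved by more than the spread between replicates, 19 by over 0.58 (log2), the most being 2.35 for AGR3, to -7.20 without the shRNF213 library of replicate 3. Of 441 list medians 421 kept their sign, and the 20 others were of lists with medians from -0.28 (mucins) to 0.10 (N-glycosylation). CPM values near 1 rest on few reads.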
